A study of Homo sapiens and Homo sapiens
Mus with 12 samples.

Results

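Xenograft tumors grown from UM-UC-3 cells carrying sh#1 or sh#2 were compared with each other over the human protein-coding genes. UM-UC-3 is an advanced bladder cancer cell line, and sh#1 and sh#2 are short hairpin RNAs directed at CDH11, a cell-cell adhesion molecule of the cadherin family. Both groups are CDH11 knockdown (KD) tumors, so the comparison sets 1 hairpin against the other, and any difference in how far each lowered CDH11 is part of it. The paper chose the sh#1 cells for adding CDH11 back because CDH11 was lower in them at the mRNA and the protein level. The members were the genes listed as protein coding in the human table of the tumors, 14947 of 26813 listed genes. The groups were 5 sh#1 and 5 sh#2 tumors, with 5 shCtrl (control hairpin) tumors beside them, of 24 libraries in the series. The other 9 libraries were of the cells in culture. All tumors grew under the skin of nude mice that were 5 weeks old at inoculation and were sampled 4 weeks later. Nude mice lack mature T cells. The paper made the sh#1 and sh#2 cell lines by sorting GFP-positive cells after infection and mentions no cloning step. Each hairpin comes with its own line, so a difference between hairpins and a difference between lines cannot be told apart. Each group was also sequenced as a mix of its own (sh#1 as number 2, sh#2 as 3, shCtrl as 1), and a difference between mixes cannot be told apart from one between groups.

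A short hairpin RNA is processed into a small interfering RNA that guides the cleavage or repression of transcripts with a matching sequence. Each hairpin has its own seed, so hairpins against the same gene can also affect different other transcripts. Cells that were selected and grown separately after transduction can differ as well. Hairpins can also lower their target to a different degree.

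Human gene totals were 414849 to 1011977 counts in sh#1 and 560630 to 1053107 in sh#2 tumors, and the means differed by 31791 counts (exact permutation test, two-sided p = 0.833, n = 5 and 5). The share of all counts that fell on mouse genes, from host tissue, was 10.4 to 30.0% in sh#1 and 13.0 to 18.8% in sh#2 tumors (exact permutation test, two-sided p = 0.921, n = 5 and 5). sh#1 tumor 1 stood apart with the lowest human total and a mouse share of 30.0%. In this tumor and in sh#2 tumors 2 and 5 the mitochondrial rRNA genes took 10.5, 10.6 and 8.86% of human counts, against 3.35 to 5.48% in the other 7. VIM, KRT18, KRT8 and CD44 were counted in all 15 tumors, whereas KRT7 reached at most 5 counts in the sh#1 and sh#2 tumors and KRT19 at most 1. Of 41 markers of host cells (leukocyte, endothelial, fibroblast, muscle, fat, blood and skin genes), 14 were at 0 or not listed in the human table, 30 had at most 5 counts in every tumor, and 3 had enough counts to be tested. In bulk tissue, fewer cells of a type and less RNA per cell cannot be told apart.

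The targeted gene had few counts. CDH11 (chromosome 16, 64943753 to 65126112) had 1, 3, 9, 2 and 7 counts in sh#1 tumors 1 to 5, 7, 14, 12, 6 and 2 in sh#2 and 21, 12, 15, 32 and 5 in shCtrl tumors. The sh#1 and sh#2 tumors overlapped, and sh#1 minus sh#2 was -0.94 (SE 0.45, q = 0.482) on the log2 scale. Here q is the adjusted p defined in the account of all genes that follows. SE is an approximate standard error, the size of the log2 fold change over the square root of that test's F statistic. Mouse Cdh11 had 1 to 28 counts in sh#1 and 7 to 30 in sh#2 tumors, and how far mouse reads enter the human counts of CDH11 was not tested. NDUFC2, TIMM21 and WNT7B, which the study measured by RT-qPCR, were not called between the hairpins. NDUFC2, a subunit of respiratory complex I, was 67.8 ± 13.8 and 63.5 ± 8.05 normalized CPM (counts per 1000000 counts, mean ± SD, n = 5 each), with sh#1 minus sh#2 at 0.14 (SE 0.16, q = 0.840). TIMM21, part of the import complex of the inner mitochondrial membrane, was at -0.48 (SE 0.23, q = 0.477). WNT7B, a WNT ligand, was at 0.06 (SE 0.21, q = 0.961).

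Of the protein-coding genes, 8625 had enough counts to be tested. A gene was called at q < 0.1, where q is the Benjamini-Hochberg adjusted p of edgeR's quasi-likelihood test over 9184 tested genes of all kinds. sh#1 tumors were higher than sh#2 tumors in 38 genes, which is 0.441% of those tested, and lower in 41, which is 0.475%. The log2 fold changes of the called genes ran from 0.34 to 2.72 and from -1.48 to -0.37, and 8 of the 79 were beyond 1 in size. In 29 of the 38 and 22 of the 41, no sh#1 tumor overlapped a sh#2 tumor, where 1.22% of all tested genes had every sh#1 tumor above and 1.17% every sh#1 tumor below the sh#2 tumors. At an unadjusted p under 0.05 there were 829 genes, or 9.61%. Leaving out each of the 15 tumors in turn gave 15 to 54 genes higher and 8 to 56 lower, with the fewest without sh#2 tumor 2. Without the 3 tumors high in mitochondrial rRNA, 10 genes were higher and 3 lower, of which 10 and 2 were among those called with all tumors.

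**Figure D1:**
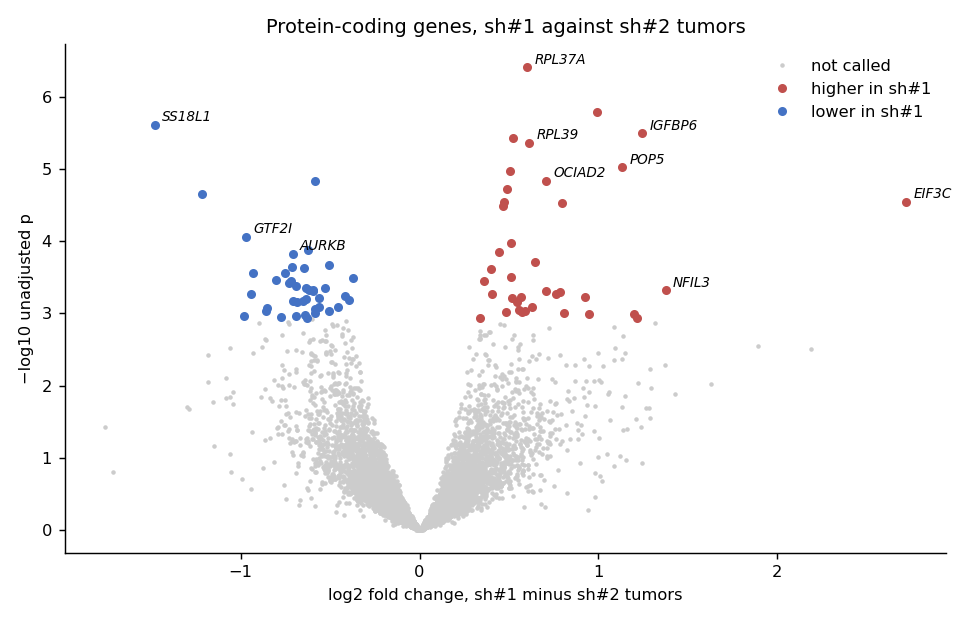
Each point is 1 of the 8625 protein-coding genes, with the log2 fold change of sh#1 minus sh#2 tumors on the x axis and the −log10 of the unadjusted p on the y axis. The 38 genes called higher are red, the 41 called lower are blue, and RPL37A has the smallest p.

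The largest rises in sh#1 tumors among genes with a mean of 20 counts or more included IGFBP6 and POP5. IGFBP6 (chromosome 12, 53097436 to 53102345), a secreted protein that binds insulin-like growth factors and prefers IGF-II, was 149.8, 81.4, 60.5, 76.1 and 74.7 normalized CPM in sh#1 tumors 1 to 5 and 32.7, 34.9, 32.6, 35.2 and 42.0 in sh#2. Every sh#1 tumor was above every sh#2 tumor, sh#1 tumor 1 lay far above the other 4, and the difference came to 1.25 (SE 0.22, q = 0.00138). POP5 (chromosome 12, 120578764 to 120581402), a subunit of RNase P and RNase MRP, was 36.1, 35.0, 42.4, 30.4 and 38.4 CPM in sh#1 and 14.2, 18.8, 16.3, 20.3 and 11.5 in sh#2 tumors. The groups were again apart, by 1.13 (SE 0.22, q = 0.00347).

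H2AJ, a replication-independent variant of histone H2A, was 94.2 ± 10.1 CPM in sh#1 and 53.7 ± 5.81 in sh#2 tumors (mean ± SD, n = 5 each), a rise of 0.80 (SE 0.17, q = 0.00815). OCIAD2, a membrane protein of mitochondria and endosomes, was 250.3 ± 40.0 and 155 ± 23.3 CPM, with 0.71 (SE 0.14, q = 0.00484). Neither gene overlapped between the groups. IL18, a cytokine of the interleukin 1 family, was 114, 89.3, 105, 112 and 165 CPM in sh#1 and 96.7, 59.1, 59.4, 60.8 and 61.1 in sh#2 tumors. It overlapped because sh#2 tumor 1 was above sh#1 tumor 2, and it rose by 0.81 (SE 0.21, q = 0.0933). GEM, a small GTP-binding protein induced by mitogens, rose by 0.93 (SE 0.25, q = 0.0710), TMEM129, a ubiquitin ligase of the endoplasmic reticulum, by 0.79 (SE 0.21, q = 0.0679), and TMA7, a small protein associated with translation, by 0.70 (SE 0.18, q = 0.0668). GRPEL1, the nucleotide exchange factor of the mitochondrial HSP70 that pulls proteins into the matrix, was 103, 63.3, 63.6, 51.1 and 59.6 CPM in sh#1 and 29.9, 33.6, 51.7, 35.2 and 38.2 in sh#2 tumors, a rise of 0.76 (SE 0.20, q = 0.0694). Only sh#1 tumor 4 and sh#2 tumor 3 overlapped there. IGFBP6, POP5, H2AJ and OCIAD2 were past the threshold in every alternative fit, whereas GEM, IL18, TMEM129, GRPEL1 and TMA7 each lost the call without at least 5 of the tumors left out in turn.

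**Figure D2:**
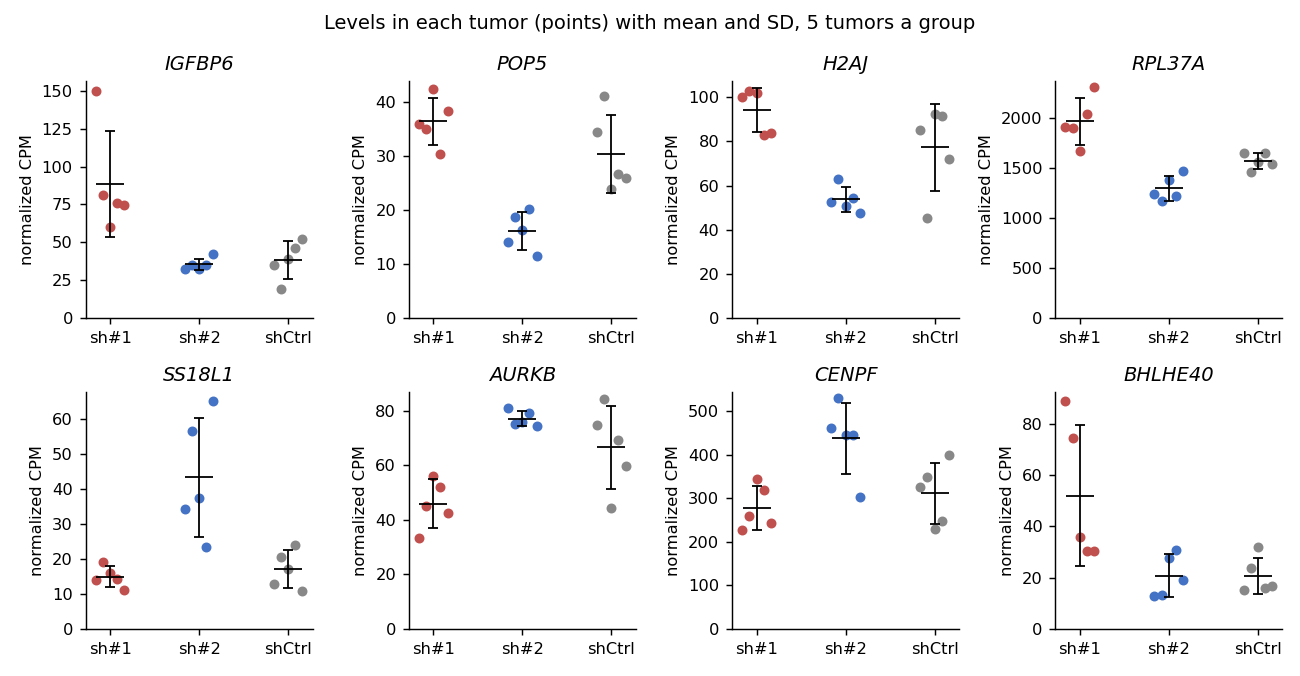
Normalized CPM of 8 genes in each tumor, with 1 point a tumor, the mean as a bar and the SD as whiskers (n = 5 a group) and each y axis starting at 0. IGFBP6, POP5, H2AJ and RPL37A are higher in all sh#1 than in all sh#2 tumors, SS18L1 and AURKB are lower in all of them, CENPF overlaps, and BHLHE40, which was not called, is high in sh#1 tumors 1 and 2.

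Among the falls, SS18L1 (chromosome 20, 62143769 to 62182514), also known as CREST and a subunit of neuronal BAF chromatin remodelling complexes, was 13.9, 19.2, 15.9, 14.1 and 11.1 CPM in sh#1 and 34.1, 56.4, 37.4, 23.5 and 64.9 in sh#2 tumors. All sh#1 tumors were below all sh#2 tumors, at -1.48 (SE 0.26, q = 0.00110). The call was lost without the 3 tumors high in mitochondrial rRNA (-1.06, q = 0.163), of which sh#2 tumors 2 and 5 had its highest values. The shCtrl tumors were at 12.8, 20.6, 17.1, 24.0 and 10.7 CPM, so the sh#2 tumors were the high group, and 4 of them were above every shCtrl tumor. EPHB4, a receptor tyrosine kinase for ephrin-B2, was 29.0 ± 6.51 and 50.7 ± 8.41 CPM, with -0.75 (SE 0.19, q = 0.0511). ITGAV, the integrin αV subunit that pairs in receptors for vitronectin and fibronectin, was 26.9 ± 5.07 and 47.2 ± 8.26 CPM, with -0.80 (SE 0.20, q = 0.0578). MPP5, now named PALS1 and part of the Crumbs cell polarity complex, was 13.9, 23.7, 8.49, 27.2 and 22.2 CPM in sh#1 and 38.4, 36.3, 36.4, 40.6 and 36.3 in sh#2 tumors. The difference came to -0.93 (SE 0.23, q = 0.0509), and sh#2 tumors lay within a narrow range while sh#1 tumors were spread. None of these 4 genes overlapped between the groups.

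SHCBP1, a protein of the spindle midzone and cytokinesis, was 30.1 ± 8.07 and 51.7 ± 4.83 CPM, with -0.73 (SE 0.19, q = 0.0579). BRCA1, a DNA repair protein whose transcript rises in S phase, was 50.2 ± 9.29 and 84.6 ± 13.5 CPM, with -0.72 (SE 0.18, q = 0.0578). Both were below in every sh#1 tumor. ARHGAP19, a GTPase-activating protein for RhoA in mitosis, fell by 0.85 (q = 0.0873). DDAH2, of the dimethylarginine dimethylaminohydrolase family, fell by 0.94 (q = 0.0694). PCBD2, a cofactor and enzyme of pterin recycling, fell by 0.77 (q = 0.0979). The last 3 overlapped between the groups. GTF2I, a transcription factor of the Williams syndrome region, was 49.9, 14.7, 18.0, 28.3 and 35.4 CPM in sh#1 and 41.2, 60.5, 51.7, 54.4 and 59.2 in sh#2 tumors, with -0.97 (SE 0.22, q = 0.0227). It is uncertain, since 9 pseudogenes listed for it hold 201 counts over the 15 tumors against 530 of GTF2I itself. EPHB4, ITGAV, MPP5, SHCBP1, BRCA1, ARHGAP19, DDAH2 and PCBD2 each lost the call without any 1 of at least 4 tumors, and GTF2I without sh#1 tumor 2 (-0.79, q = 0.121).

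The largest fold change of all belonged to a gene below the mean of 20 counts, named here after its values were seen. EIF3C, a core subunit of translation initiation factor 3, had 6, 8, 8, 9 and 6 counts in sh#1 tumors 1 to 5, 1, 2, 0, 2 and 0 in sh#2 and 32, 17, 26, 22 and 7 in shCtrl tumors, a difference of 2.72 (SE 0.57, q = 0.00815). EIF3CL, its near-identical copy on the same chromosome, had 22 counts in all in sh#1 and 49 in sh#2 tumors (-1.18 on the log2 scale, q = 0.267). The sum of the copies was 59 counts in sh#1, 54 in sh#2 and 242 in shCtrl tumors. EIF3C is uncertain, since counting could split reads between the copies and their sum differed little between the hairpins.

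Cytosolic ribosomal protein genes formed the most numerous group among the called genes. These genes encode the protein subunits of the cytosolic ribosome and are among the most abundant transcripts of a growing cell. Many of their transcripts start with a C followed by a run of pyrimidines, the 5′ terminal oligopyrimidine (TOP) motif, through which mTOR signalling controls their translation. Of 77 tested ribosomal protein genes, 12 were higher in sh#1 tumors and 0 lower, where 0.441% and 0.475% of all tested genes were. A log2 fold change above 0 was found in 74, where 49.2% of all tested genes had one. An unadjusted p under 0.05 was found in 38, all 38 above 0, where 9.61% of all tested genes had one in either direction. The median log2 fold change was 0.20 over the list and -0.01 over all protein-coding genes tested. The start regions of the called ribosomal protein genes with an entry in RefSeq (10 of 12) are shown because they let the TOP run be seen. Each line gives 10 bases before and 20 bases from the start of the RefSeq gene (build GRCh38.p14, 5′ to 3′ on the gene's strand), with capitals for the run where a C stands at the start and at least 4 bases that are each C or T follow it.
RPL37A (chr2:216498834-216498863, + strand): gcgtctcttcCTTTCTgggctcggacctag
RPL39 (chrX:119791611-119791640, - strand): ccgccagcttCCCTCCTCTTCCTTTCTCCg
RPL38 (chr17:74203668-74203697, + strand): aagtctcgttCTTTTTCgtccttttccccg
RPL34 (chr4:108620566-108620595, + strand): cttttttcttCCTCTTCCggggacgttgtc
RPL36 (chr19:5690285-5690314, + strand): cggcgccagcCCTTCCgccacggccgtctc
RPL41 (chr12:56116623-56116652, + strand): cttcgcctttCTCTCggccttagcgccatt
RPS25 (chr11:119018324-119018353, - strand): gcagcgcttcCTTTTTgtccgacatcttga
RPS26 (chr12:56041908-56041937, + strand): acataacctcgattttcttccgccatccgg
RPS29 (chr14:49598691-49598720, - strand): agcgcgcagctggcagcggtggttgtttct
RPL9 (chr4:39458903-39458932, - strand): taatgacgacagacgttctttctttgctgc
The run was at the RefSeq start in 7 of these 10, and in 43 of the 62 tested ribosomal protein genes with an entry (69.4%). It was there in 4.04% of all 27305 RefSeq starts and in 5.96% of the 7181 tested protein-coding genes with an entry. The 3 genes without it at this base (RPS26, RPS29 and RPL9) may start elsewhere than the RefSeq record, so the letters describe the record and not the transcripts of these cells. Of the other called genes with an entry, the run was there in 0 of 18 that were higher and in 3 of 34 that were lower (8.82%).

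RPL37A (chromosome 2, 216498825 to 216579180) had the smallest p of all protein-coding genes. It was 1912, 1896, 1668, 2039 and 2309 normalized CPM in sh#1 tumors 1 to 5, 1244, 1171, 1378, 1214 and 1470.5 in sh#2 and 1645, 1463, 1555, 1649 and 1539.7 in shCtrl tumors. All sh#1 tumors were above all others, all sh#2 tumors except number 5 were below every shCtrl tumor, and sh#1 minus sh#2 was 0.60 (SE 0.10, q = 2.06e-04). RPL39 was 472, 396, 336, 375 and 448 CPM in sh#1 and 260.2, 251, 272, 242 and 296 in sh#2 tumors, with 0.61 (SE 0.11, q = 0.00171). RPL37 was 2309, 2279, 1923, 1879 and 2221 CPM in sh#1 and 1396, 1378, 1568, 1352 and 1702 in sh#2 tumors, with 0.52 (SE 0.10, q = 0.00153). The groups did not overlap in these genes. RPS29 (0.51 (SE 0.10, q = 0.00376)), RPS26 (0.49 (SE 0.10, q = 0.00595)) and RPL38 (0.47 (SE 0.10, q = 0.00815)) did not overlap either. Other called members were RPL41, RPL36, RPS25, RPL34 and RPL9, with log2 fold changes from 0.34 to 0.47. Several of these genes have processed pseudogenes, which held 550 counts for RPL37A against 20819 of the gene itself and 655 for RPS26 against 10589. With 1643 pseudogenes summed with their parent gene, 11 ribosomal protein genes were called.

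The values of the list were small and mostly on 1 side of 0. The mean level of the 77 genes, as log2(CPM + 1), was 10.53 to 10.81 in sh#1 tumors (median 10.69), 10.34 to 10.55 in sh#2 (median 10.47) and 10.49 to 10.78 in shCtrl tumors (median 10.71). Only the highest sh#2 tumor overlapped the lowest sh#1 tumor, and the shCtrl tumors lay at the level of the sh#1 tumors. Against shCtrl, the median log2 fold change of the list was 0.03 in sh#1 and -0.18 in sh#2 tumors, which share the shCtrl tumors. The number called ranged from 7 to 18 over the fits that left out 1 tumor, and it was 4 without the 3 tumors high in mitochondrial rRNA, where 73 of 77 were still above 0. With the trend of each tumor's levels on transcript length removed, 62 of 77 were above 0 with a median of 0.14, and 7 were called. The list is short, with a median transcript of 869 nt.

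In cultured cells the same genes went the opposite way. Of the 77 ribosomal protein genes, 75 were lower in sh#1 than in sh#2 cells (q < 0.05, 3 libraries each) and 0 higher, and the median log2 fold change was -0.30. Over all 9859 genes tested in culture, 13.5% were lower and 11.2% higher. RPL37A was at -0.40 (q = 5.61e-08), RPL39 at -0.26 (q = 1.31e-04) and RPS29 at -0.26 (q = 2.22e-04) in culture. By sign alone, called or not, 74 of the 77 were above 0 in tumors and below 0 in culture. Tumor and culture libraries share no samples, but they were made, sequenced and mapped separately.

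**Figure D3:**
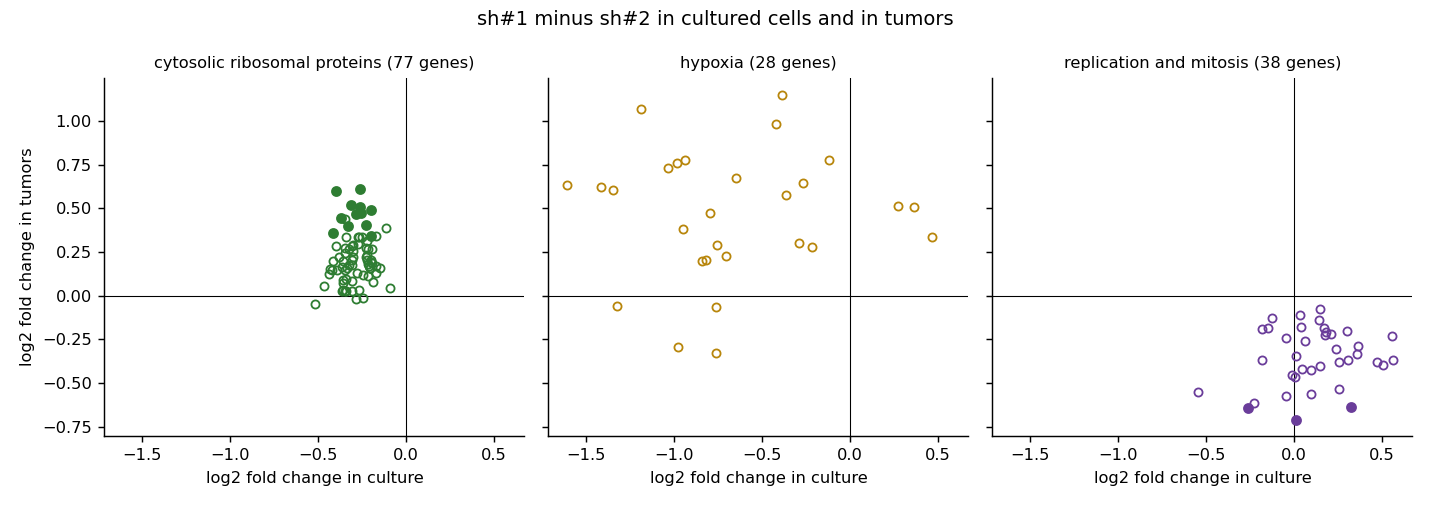
Log2 fold change of sh#1 minus sh#2 in cultured cells (x axis, 3 libraries a group) and in tumors (y axis, 5 tumors a group), with 1 point a gene and filled points for genes called in tumors. Of the 77 ribosomal protein genes 74 lie at the upper left, 21 of 28 hypoxia genes do so too, and all 38 replication and mitosis genes lie below 0 in tumors.

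Genes of DNA replication and mitosis were all at lower fitted levels in sh#1 than in sh#2 tumors, though few were called. These genes copy DNA, build the kinetochore and run the spindle checkpoint, and their transcripts peak in dividing cells. All 38 tested members had a log2 fold change below 0, 18 at an unadjusted p under 0.05, 3 were called lower and 0 higher. Of all 8625 tested protein-coding genes, 4379 were below 0, 9.61% had an unadjusted p under 0.05 in either direction and 0.475% were called lower. The median was -0.36. AURKB (chromosome 17, 8204733 to 8210600), the kinase of the chromosomal passenger complex that corrects kinetochore attachments, was 33.3, 45.2, 56.2, 52.2 and 42.4 CPM in sh#1 and 81.0, 75.2, 75.7, 79.0 and 74.5 in sh#2 tumors. It was lower in every sh#1 tumor, with -0.71 (SE 0.17, q = 0.0345), and lost the call without sh#1 tumor 5 (-0.67, q = 0.105). CENPF, a protein of the outer kinetochore, was 228, 259, 344, 319 and 242 CPM in sh#1 and 462, 529, 444, 446 and 304 in sh#2 tumors, with -0.65 (SE 0.15, q = 0.0473). CENPE, a kinetochore motor that carries chromosomes to the spindle equator, was 94.3, 88.2, 174, 99.0 and 104 CPM in sh#1 and 169, 228, 162, 188 and 129.9 in sh#2 tumors, with -0.64 (SE 0.17, q = 0.0722). Both overlapped, CENPF through sh#2 tumor 5 and CENPE through sh#1 tumor 3, and each lost the call without any 1 of at least 6 tumors.

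The mean level of the 38 genes, as log2(CPM + 1), was 5.96 to 6.68 in sh#1 (median 6.35), 6.56 to 6.90 in sh#2 (median 6.72) and 6.39 to 6.85 in shCtrl tumors (median 6.65). The lowest value was that of sh#1 tumor 1. Without that tumor all 38 genes were still below 0, with a median of -0.26 and 1 gene called. Without the 3 tumors high in mitochondrial rRNA, 37 of 38 were below 0, the median was -0.24 and 0 were called. In culture the list had 28 of 38 genes above 0 and a median of 0.12. There 8 were called higher and 2 lower in sh#1, beside 11.2% higher and 13.5% lower over all genes tested in culture.

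Hypoxia genes, which are switched on by hypoxia-inducible factors when oxygen is low, and glycolysis genes mostly had values above 0 in sh#1 minus sh#2 tumors, but none was called. Of 28 hypoxia genes, 24 were above 0, 7 had an unadjusted p under 0.05 and the median log2 fold change was 0.51. Of 16 glycolysis and lactate genes, 14 were above 0, 3 had an unadjusted p under 0.05 and the median was 0.31. Over all tested genes 49.2% were above 0 and 9.61% had an unadjusted p under 0.05. BHLHE40, a transcriptional repressor induced by hypoxia, was 88.8, 74.6, 36.1, 30.4 and 30.3 CPM in sh#1 and 12.8, 13.4, 27.8, 30.9 and 19.1 in sh#2 tumors (1.15 (SE 0.34, q = 0.173)). FAM162A, a mitochondrial protein induced by hypoxia, was 386, 233, 176, 217 and 203 CPM in sh#1 and 139, 144, 172, 142 and 168 in sh#2 tumors (0.62 (SE 0.22, q = 0.294)). GPI, the glucose-6-phosphate isomerase of glycolysis, was at 0.39 (SE 0.17, q = 0.421), and ENO2, an enolase, at 0.88 (SE 0.39, q = 0.474). sh#1 tumor 1 was the highest in all 4 genes. Other fits called hypoxia genes higher, 2 with DESeq2, 4 with no low-count filter, 2 with the sh#1 and sh#2 tumors only and 3 with the mitochondrial rRNA share as a covariate. DESeq2 called BHLHE40 (1.24, q = 0.0282) and FAM162A (0.65, q = 0.0994).

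The mean level of the hypoxia list was 7.71 in sh#1 tumor 1 and 6.32 to 6.88 in the other sh#1 tumors, against 6.13 to 6.48 in sh#2 tumors. Without sh#1 tumor 1, the median of the hypoxia list was 0.19 and that of the glycolysis list 0.18, and 22 of 28 and 13 of 16 genes were above 0. This tumor also had the mouse share of 30.0% and the mitochondrial rRNA share of 10.5%. The hypoxia median was 0.49 with the mouse to human ratio as a covariate and 0.74 with the mitochondrial rRNA share as one. Without the 3 tumors high in mitochondrial rRNA it was 0.27, with 24 of 28 genes above 0. Beyond these fits, the part of either share in the hypoxia values was not tested. In cultured cells 23 of the 28 hypoxia genes and 13 of the 16 glycolysis genes were called lower in sh#1 than in sh#2 (medians -0.76 and -0.70), and 3 and 0 higher, beside 13.5% lower and 11.2% higher over all genes.

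**Figure D4:**
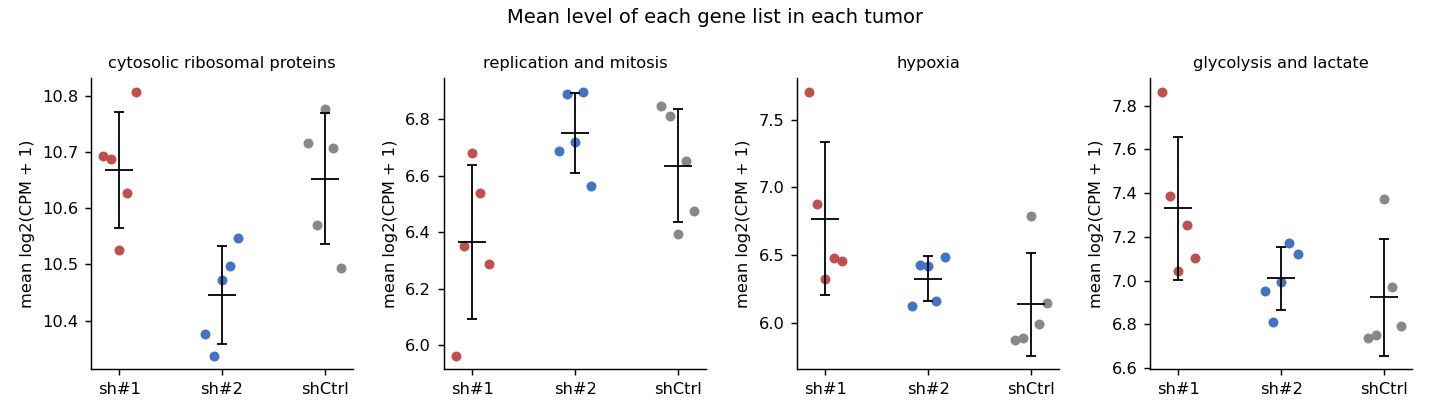
Mean of log2(CPM + 1) over the tested genes of 4 lists in each tumor, with 1 point a tumor, the mean as a bar and the SD as whiskers (n = 5 a group), and a separate y axis for each list that does not start at 0. sh#1 tumor 1 is the highest point of the hypoxia list at 7.71 and the lowest of the replication and mitosis list at 5.96.

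Few mitochondrial genes were called between the hairpins. Of 75 nuclear genes of oxidative phosphorylation, which encode respiratory chain and ATP synthase subunits, 2 were higher in sh#1 tumors and 0 lower, where 0.441% and 0.475% of all tested genes were. In this list 52 were above 0 and 8 had an unadjusted p under 0.05, all 8 above 0. Of all tested genes, 49.2% were above 0 and 9.61% had an unadjusted p under 0.05. The list's median log2 fold change was 0.10, or 0.00628 with the length trend removed. NDUFA3, an accessory subunit of complex I, was 77.7, 104, 76.4, 80.5 and 88.9 CPM in sh#1 and 44.1, 45.7, 55.5, 74.7 and 51.6 in sh#2 tumors, with 0.64 (SE 0.16, q = 0.0438). ATP5ME, subunit e of ATP synthase, was 55.6 ± 6.11 and 35.8 ± 5.78 CPM, with 0.63 (SE 0.17, q = 0.0863). Every sh#1 tumor was above every sh#2 tumor in both genes, and the shCtrl tumors were at 80.7 ± 4.66 and 53.8 ± 7.70 CPM, near the sh#1 tumors. NDUFA3 and ATP5ME each lost the call without any 1 of at least 4 tumors. Of 25 import genes, 1 was called higher (GRPEL1, above), where 0.441% of all tested genes were, and the median was 0.01. TOMM7, which stabilizes the translocase of the outer membrane, was at 0.36 (SE 0.14, q = 0.331). Of the 13 protein genes of mitochondrial DNA none was called, with a median of 0.04, and MT-ND2 and MT-ND3, subunits of complex I, were at 0.28 and 0.13 (q = 0.383 and 0.775). With the mitochondrial rRNA share as a covariate, 2 of the 13 were called higher, MT-ND2 among them (q = 0.0347).

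The remaining lists gave 2 calls, both lower in sh#1 tumors, where 0.475% of all tested genes were called lower. Among 31 mesenchymal and matrix genes, LAMB1, a chain of basement membrane laminins, was 39.8 ± 8.66 and 63.6 ± 10.9 CPM, with -0.65 (SE 0.18, q = 0.0753), and the list's median was -0.02. ITGA6, an integrin that binds laminin, was at -0.50 (SE 0.18, q = 0.280). Among 27 heat shock and chaperone genes, CCT5, a subunit of the cytosolic chaperonin that folds tubulin and actin, was at the threshold with -0.63 (SE 0.18, q = 0.0996). PDIA6, a protein disulfide isomerase, was at -0.48 (SE 0.17, q = 0.243), and the list's median was 0.03. LAMB1 and CCT5 each lost the call without any 1 of at least 6 tumors. None was called among 17 AP-1 and immediate early genes (median 0.33), 13 chemokine and NF-kB genes (0.22), 28 interferon and MHC class I genes (0.10), 26 cholesterol and fatty acid synthesis genes (0.09), 24 genes of the ATF4 amino acid response (0.05), 18 NRF2 targets (0.07), 11 cadherin and catenin genes (-0.01), 2 metallothioneins (0.38), 1 subtype marker and 3 host cell markers (0.08). Above 0 were 14 of the 17 AP-1, 12 of the 13 chemokine, 17 of the 28 interferon and 20 of the 26 cholesterol genes. So were 14 of the 24 ATF4, 13 of the 18 NRF2 and 5 of the 11 cadherin genes. An unadjusted p under 0.05 was found in 4 AP-1, 4 chemokine, 2 interferon, 3 cholesterol, 4 ATF4, 4 NRF2 and 3 cadherin genes. Over all tested genes 49.2% were above 0 and 9.61% had such a p.

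Some uncalled members had large values. EGR1, an immediate early transcription factor, was 289, 219, 135, 80.5 and 112 CPM in sh#1 and 58.3, 76.6, 69.0, 43.8 and 59.2 in sh#2 tumors. The groups did not overlap, yet the spread among sh#1 tumors was wide and the result was 1.37 (SE 0.41, q = 0.201). FOS, its companion in the early response, was at 1.28 (SE 0.49, q = 0.365). CXCL8, the neutrophil chemokine interleukin 8, was at 1.32 (SE 0.37, q = 0.108) and LIF, a cytokine of the interleukin 6 family, at 0.73 (SE 0.32, q = 0.425). EGR1 was called with DESeq2 (1.44, q = 0.0242), with the mouse to human ratio as a covariate and with the replicate block (1.36, q = 0.0746), and CXCL8 in 10 of its 27 alternative fits (q from 0.00737 to 0.285 over them). IRF9 and IRF1, interferon regulatory factors, were at 1.00 and -0.54 (q = 0.173 and 0.364). PCDH7 and PCDH9, protocadherins, were at 1.13 and 0.45 (q = 0.364 and 0.421). HSD17B7 and IDI1 of cholesterol synthesis were at 1.09 and 0.48 (q = 0.115 and 0.259). PHGDH, the first enzyme of serine synthesis, was at 0.58 and CEBPG, a bZIP partner of ATF4, at 0.42 (q = 0.338 and 0.397). ABCC1, a drug exporter, was at 0.83 and FTL, the ferritin light chain, at 0.48 (q = 0.294 and 0.319). MT1X and MT2A, metallothioneins, were at 0.64 and 0.11 (q = 0.331 and 0.887). CD44, a hyaluronan receptor and the only testable subtype marker, was at 0.07 (SE 0.13, q = 0.907). COL1A1, a fibroblast collagen, was at -1.29 (SE 0.49, q = 0.375) and KRT10, a keratin of the epidermis, at 0.28 (SE 0.18, q = 0.630).

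The called genes also differed in transcript length, a property that was not used to choose them. Genes called higher had a median canonical transcript of 1128 nt (GENCODE release 44, hg38), genes called lower 5169 nt, and all tested genes 3554 nt. Of those called higher, 60.5% were under 1500 nt, against 5.00% of those called lower and 13.0% of all tested. The median log2 fold change went from 0.20 in 113 genes up to 600 nt through 0.08 in 375 genes of 600 to 1000 nt to -0.06 in 1794 genes over 6000 nt. In culture the median was -0.14 up to 600 nt and 0.02 over 6000 nt, while in the 2433 genes of 1500 to 3000 nt both medians were 0.02.

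Across the 10 tumors, the median level of transcripts up to 1000 nt minus that of transcripts over 6000 nt, each gene centred on its mean over all 15 tumors, was -0.07 to 0.12 (log2) in sh#1 and -0.30 to -0.04 in sh#2 tumors. It ran from -0.33 to 0.39 in the shCtrl tumors, wider than in either hairpin. Without the ribosomal protein genes it was -0.11 to 0.11 in sh#1 and -0.30 to -0.03 in sh#2 tumors. With the trend of each tumor's levels on length removed, 27 genes were higher and 20 lower, of which 24 and 20 were among those called without this step. In that fit 7 ribosomal protein genes were called. RNA quality was not given per tumor, and its part in the length pattern was not tested. GC content of the canonical transcripts was 46.8% (median) in genes called higher, 44.3% in those called lower and 46.7% in all tested.

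**Figure D5:**
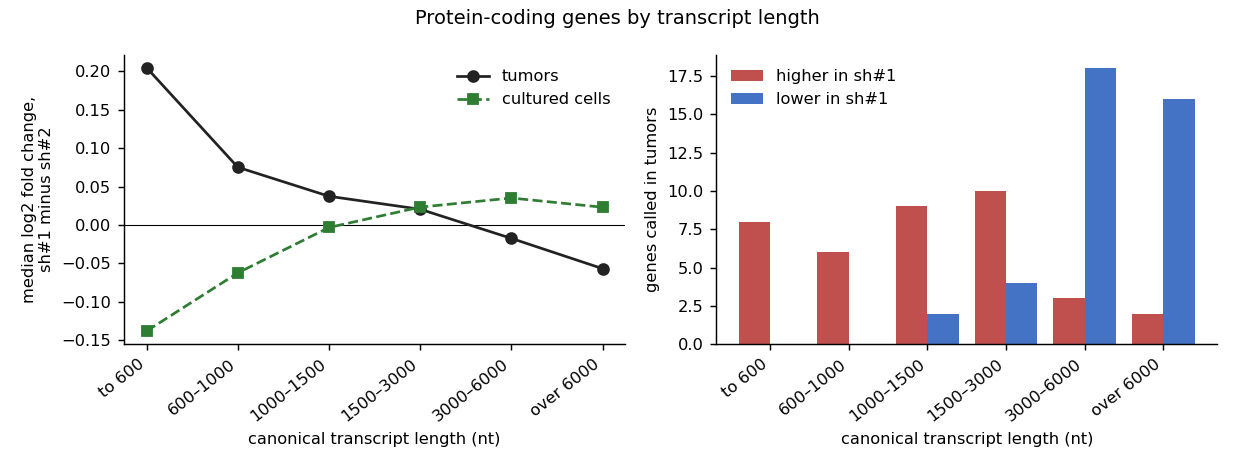
Left, the median log2 fold change of sh#1 minus sh#2 in 6 classes of canonical transcript length (nt), in tumors and in cultured cells. Right, the number of genes called higher and lower in sh#1 tumors in each class, with no gene called lower up to 1000 nt and 34 of 40 called lower over 3000 nt.

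The shCtrl tumors were set beside the called genes. The shCtrl mean lay between the sh#1 and sh#2 means in 62 of the 79 called genes, below both in 14 and above both in 3. By fitted log2 fold change the shCtrl tumors were nearer to sh#1 in 50 and nearer to sh#2 in 29. Genes chosen for a wide gap between sh#1 and sh#2 have more room for the shCtrl mean to lie between them. These positions were not counted over all tested genes, so whether 62 or 50 of the 79 departs from that background was not tested. Of the 79, 10 were called in sh#1 against shCtrl tumors and 26 in sh#2 against shCtrl tumors, where 1.09% and 2.23% of all tested protein-coding genes were called, and 44 were called in neither. These comparisons share tumors with the one that chose the genes and are given as a description. IGFBP6 was at 1.13 in sh#1 and -0.11 in sh#2 against shCtrl and IL18 at 1.18 and 0.37, so the sh#1 tumors were the ones further from shCtrl. POP5 was at 0.25 and -0.88, TMEM129 at -0.09 and -0.87, NDUFA3 at 0.10 and -0.55, and SS18L1 at -0.22 and 1.26, so there the sh#2 tumors were further away.

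The called genes were set beside the cultured cells. Of the 78 called genes that were tested in both systems, 36 had the same sign in culture (46.2%), where 48.7% of all 8352 genes tested in both did. In culture 17 were called in the same direction and 19 in the opposite one, and 17 of the 19 were higher in sh#1 tumors. Of all genes tested in both, 25.7% were called in culture. Over all genes tested in culture, 13.5% were lower and 11.2% higher in sh#1. The genes higher in sh#1 tumors include 12 ribosomal protein genes, a list with 75 of 77 called lower in culture. Among genes lower in sh#1 tumors, 13 of 41 were called lower in culture as well and 2 higher. LAMB1 was at -0.89 (q = 2.74e-05), DDAH2 at -0.82 (q = 0.00811) and ITGAV at -0.53 (q = 0.0187) in culture, as in tumors. IGFBP6 was at -0.03 (q = 0.861) and SS18L1 at -0.15 (q = 0.740), so neither was called in culture. IL18 was higher in sh#1 in culture too (0.51, q = 0.0333).

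Called genes were on every chromosome from 1 to 22 and X except chromosome 18, but not evenly. On chromosome 4, 7 of 309 tested genes were higher and 1 lower, and on chromosome 12, 7 of 499 were higher and 1 lower, where 0.441% of all tested genes were higher. On chromosome 7, 7 of 410 were lower and 0 higher, where 0.475% of all were lower. The median log2 fold change of all tested genes was between -0.08, on chromosome 7, and 0.05, on chromosome 11.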

How the data were processed

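RNA-seq was performed by the authors on 15 tumors and 9 libraries of cultured cells (75 bp single reads). Tumor reads were trimmed with Trim Galore by the authors and mapped to hg38 with HISAT2, and raw counts per gene were deposited, with a separate table of mouse counts. The counting tool, strand setting, molecular identifiers and the separation of human from mouse reads are not given in the sources used here. The culture reads were trimmed in CLC Genomics Workbench and mapped with RaNAseq, and the authors deposited raw counts. A further 13 genes of that table are not analysed here.

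All 15 tumors entered 1 model by group (edgeR 4.0.16, R 4.3.3, TMM scaling, filterByExpr, robust quasi-likelihood test, Benjamini-Hochberg adjustment), with a threshold of 0.1 as in the study, and the cultures another with 0.05. On simulated counts of 9027 genes, 200 were changed by 1 or 2 on the log2 scale. The model recovered 95.0% of those changed by 1 and 100% of those changed by 2, with 11.4% of calls false. Smaller changes were not simulated, whereas only 8 of the 79 called genes were beyond 1 in size. In the tumors BHLHE40, at 1.15, was not called. These shares therefore describe the simulated counts, and whether they hold for the tumors was not tested. Normalized CPM used TMM library sizes. With 414849 to 1248977 counts a tumor, genes of few counts are imprecise. Pairs of tumors of a group differed by 1.81 to 6.89 times sampling noise (chi-square per degree of freedom), so no pair looked like repeats of 1 library, and each tumor was taken as a replicate, although the labels give 1 sample per group with 5 tumors and do not tie tumors to mice. If a mouse bore several tumors, p-values would be too small.

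The members and the 19 gene lists were chosen with earlier results of these data known. The genes named were CDH11, NDUFC2, TIMM21, WNT7B, the 10 largest rises and 10 largest falls among called genes averaging 20 counts or more, and of each list the called members (at most 6) or, where fewer than 2 were called, the 2 with the smallest p. Genes with near-identical copies are given as uncertain. Of the genes these rules name or lists hold, 2 are not reported here. Transcript lengths came from GENCODE release 44, start sequences from RefSeq (GRCh38.p14), and permutation tests from SciPy 1.17.1. Alternatives were upper quartile scaling, DESeq2 1.42.0, other count filters, the hairpin tumors alone, protein-coding genes alone, summed pseudogenes, mouse to human ratio covariates, a replicate block, a threshold of 0.05 and each tumor left out. Chosen after seeing the data were the mitochondrial rRNA share as a covariate, leaving out the 3 tumors highest in it, and removing a length or GC trend. The trend was a loess curve (span 0.4), fitted in each tumor to the log2 levels as deviations from the gene means.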

Additional observations from a re-analysis of the deposited data

Results flagged for a closer look

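Within groups of 5 tumors, a value whose gap to its nearest neighbour took an unusually large part of the group's range (Dixon's test, 95%) was singled out in 15 of 138 groups examined, where chance gives about 1 in 20. sh#1 tumor 1 gave the lowest human total (414849 counts) and the highest mitochondrial rRNA share (10.5%) of the sh#1 tumors, and the highest normalized CPM of IGFBP6 (149.8), GRPEL1 (102.7), FAM162A (386) and ENO2 (297). sh#1 tumor 2 was highest in WNT7B (41.8 CPM) and MT1X (201 CPM), sh#1 tumor 3 in CENPE (174 CPM), and sh#1 tumor 5 lowest in TMA7 (47.5 CPM). Among the sh#2 tumors, tumor 5 was highest in IGFBP6 (42.0 CPM), tumor 1 in IL18 (96.7 CPM), tumor 3 in SHCBP1 (60.3 CPM) and tumor 4 in IRF9 (19.2 CPM), and tumor 3 was lowest in PHGDH (12.5 CPM).

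The sh#1 and sh#2 samples were also set side by side in tumors and in cultured cells for 33 called genes, which entered because they were called in the tumors. In 6 of them, all ribosomal protein genes, every sh#1 tumor was above every sh#2 tumor while every sh#1 culture was below every sh#2 culture. The difference of sh#1 minus sh#2, as log2(CPM + 1), was 1.00 higher in tumors than in culture for RPL37A, 0.87 for RPL39, 0.84 for RPL37, 0.77 for RPS29, 0.73 for RPL38 and 0.69 for RPS26. The difference between tumors and culture was not tested.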

How the results depend on the processing

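With all tumors, sh#1 exceeded sh#2 in 38 protein-coding genes and was lower in 41. The count of higher genes was 58 with DESeq2, 79 with no low-count filter, 61 with the mitochondrial rRNA share as a covariate and 17 at q < 0.05. That of lower genes was 22 with protein-coding genes only, 20 with the length trend removed and 9 at q < 0.05. Of the 38 higher and 41 lower genes, DESeq2 kept 33 and 34. The fit with no low-count filter kept 34 and 25, and the mitochondrial rRNA covariate kept 25 and 23. With the sh#1 and sh#2 tumors only the counts were 69 and 75, and without the 3 tumors high in mitochondrial rRNA they were 10 and 3. Leaving out 1 tumor gave 15 to 54 higher and 8 to 56 lower. Without sh#1 tumors 1 to 5 in turn the counts were 21 and 20, 24 and 13, 31 and 23, 32 and 23, and 21 and 18, and without sh#2 tumors 1, 2 and 3 they were 17 and 12, 15 and 8, and 21 and 13. Of 33 named genes that were called, 8 passed in every fit, 12 lost no call without any single tumor, 23 lost it without the 3 tumors, and none changed sign. The share of called genes that were higher was 48.1%, and 58.3% with upper quartile normalization and 64.8% with no low-count filter.

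CDH11 was called in none of its 26 alternatives. The sign changed for WNT7B (-0.0362 without sh#1 tumor 2 and -0.0386 without sh#2 tumor 4, with 0.170 the highest without 1 tumor and 0.338 without the 3 tumors), MT-ND3 (-0.0507) and MT2A (-0.0552) with the length trend removed, and CD44 (-0.0554) without the 3 tumors, none of them called. sh#1 minus sh#2 was 0.77 percentage points in mouse share, ranging from -2.68 (without sh#1 tumor 1) to 2.24 without 1 tumor, and 31791 in human total counts, ranging from -30374.6 (without sh#2 tumor 5) to 138350, with -10932.4 without sh#1 tumor 5. The number of called genes with the same direction in culture was 36 of 78, 19 of 48 at a mean of at least 50 counts, and 6 of 22 to 49 of 108 without 1 tumor. As a share it ran from 27.3% (6 of 22, without sh#2 tumor 2) to 49.3% (37 of 75, without sh#2 tumor 5). Tumors with the same number did not deviate together (correlations from -0.10 to 0.02), and a fit with the replicate number as a block called 34 higher and 29 lower. Genes with few counts are the limit of this depth, with 8 of the 79 calls at a mean under 20 counts.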
